A study of Mus musculus with 18 samples.

Results

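The regions described here are the 10 kb windows of the mouse autosomes that lay inside a called lamin B1 domain and a called H3K9me3 region in young liver and inside neither in old liver. They were chosen by the calls themselves, so the loss of both marks is how the windows were selected and not a finding. The rule kept 3408 of 246266 autosomal windows (1.38%), or 34.1 Mb, and adjacent windows joined into 399 runs. Of the kept windows, 3405 had at least 90% of their bases known in the reference and entered the densities given per kb or Mb.

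Livers of wild-type male C57BL/6 mice aged 3 months (young) or 21 months (old) were profiled by ChIP-Seq for lamin B1 and for the histone mark H3K9me3, with 2 replicates for each antibody and age. A separate experiment profiled Foxa2 at an age of 12 weeks, in the livers of 3 Zmpste24 KO and 3 wild-type mice, the wild types being littermates of the KO mice, so no Foxa2 site here comes from a mouse in which the lamin B1 and H3K9me3 calls were made. Replicates were merged before calling, and each condition is 1 list of positions with no signal or score. No test between conditions was possible, and the 95% intervals below cover counting error only. Neighbouring windows of a domain are not independent, so even these intervals are narrower than the true uncertainty. The old lists had fewer entries than the young ones, with 1519 lamin B1 domains against 1624 and 2496 H3K9me3 regions against 2784, but did not cover fewer windows. Lamin B1 domains covered 46617 autosomal windows in young and 93025 in old liver, and H3K9me3 regions covered 57556 and 61641. Per the study, the merged old lamin B1 libraries held fewer reads than the young ones and the old H3K9me3 libraries held more, and the part of depth in the loss of a call was not tested. The age of each H3K9me3 list rests on its name alone. Both H3K9me3 lists are much shorter than the sets the study describes, and every value here that uses an H3K9me3 call, or the lack of one, rests on these shorter lists: the share that lost both marks, the windows that never had H3K9me3 and the regions with no old overlap.

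Lamin B1 is a filament protein of the nuclear lamina, the meshwork under the inner nuclear membrane, and the chromosome stretches that touch it, the lamina-associated domains, are broad, poor in genes and mostly silent. H3K9me3, trimethylation of lysine 9 of histone H3, marks constitutive heterochromatin, satellite and transposon repeats, and clusters of genes kept off, and part of it lies at the nuclear periphery. Foxa2 is a winged-helix (forkhead) pioneer factor of the liver that can bind DNA in closed chromatin and recognises sites around the core TGTTTAC. Zmpste24 is the protease that matures prelamin A, and mice without it have a defective lamina and a progeroid phenotype. A window that lost both marks is therefore one where 2 features of peripheral heterochromatin were called in the young and not in the old animals, and the Foxa2 lists ask whether such windows hold sites of a factor able to enter closed chromatin.

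A small number of Foxa2 sites with a forkhead core lay inside the lost windows, and 6 of them are shown because the results on Foxa2 return to them: both sites that were called in both genotypes, and sites called in 1 genotype only at the genes Ssbp2, Atp2b1 and Abcg2. Each line gives 107 bases of the reference (GRCm38.p6, mm10 coordinates), 5′ to 3′, on the strand that carries the core, and the capitals mark the core.
near Cnot7, called in both genotypes, chr8:40573027-40573133, forward strand: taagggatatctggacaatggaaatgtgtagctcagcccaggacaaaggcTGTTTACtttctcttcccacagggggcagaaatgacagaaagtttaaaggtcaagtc
near Rnf217, called in both genotypes, chr10:31551502-31551608, forward strand: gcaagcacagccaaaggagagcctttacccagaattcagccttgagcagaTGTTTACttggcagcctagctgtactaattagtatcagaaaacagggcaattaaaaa
near Ssbp2, wild type only, chr13:91465301-91465407, reverse strand: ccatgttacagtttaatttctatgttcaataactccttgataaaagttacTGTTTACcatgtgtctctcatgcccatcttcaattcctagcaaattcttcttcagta
near Ssbp2, mutant only, chr13:91368166-91368272, reverse strand: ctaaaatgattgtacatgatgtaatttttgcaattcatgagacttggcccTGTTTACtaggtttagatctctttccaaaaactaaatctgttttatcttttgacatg
near Atp2b1, mutant only, chr10:98874487-98874593, forward strand: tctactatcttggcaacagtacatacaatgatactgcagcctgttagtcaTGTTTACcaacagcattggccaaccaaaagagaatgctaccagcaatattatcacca
near Abcg2, mutant only, chr6:58607738-58607844, forward strand: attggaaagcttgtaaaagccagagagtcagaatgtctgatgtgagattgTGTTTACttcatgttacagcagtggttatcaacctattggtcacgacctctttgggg

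In young liver 11228 autosomal windows carried both calls. In old liver 3408 of them (30.4%, Wilson interval 29.5 to 31.2) had lost both, 1366 (12.2%) had lost lamin B1 only, 1780 (15.9%) had lost H3K9me3 only and 4674 (41.6%) kept both. Over all young windows of each mark, 28.8% of lamin B1 windows and 57.7% of H3K9me3 windows lost that call. In the 11228 windows with both, lamin B1 was no longer called in 42.5%, a larger share, and H3K9me3 in 46.2%, a smaller one. The product of 42.5% and 46.2% is 19.6%, so the joint loss was 1.54 times the product. Among windows that lost lamin B1, 71.4% also lost H3K9me3, against 27.6% of those that kept lamin B1. The joint loss exceeded the product on 18 of 19 chromosomes. This count was not adjusted for GC content, and within GC bins the genomewide joint loss was 1.10 times the product.

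The lost windows were unevenly spread over the chromosomes. Chromosomes 2, 3, 10, 1 and 13 held 487, 426, 422, 393 and 309 of them, together 59.8% of all, on 32.0% of the autosomal windows. Chromosome 10 was the densest, with 3.23% of its windows lost against 1.38% genomewide, and chromosome 19 the sparsest, with 2 windows (0.0326%). Relative to the windows that carried both marks in the young, the share lost ranged from 3.39% on chromosome 19 and 11.5% on chromosome 18 to 42.7% on chromosome 13 and 47.2% on chromosome 2, with a median of 23.4% over chromosomes. Only 6 chromosomes exceeded the genomewide 30.4%, and chromosomes 5, 15 and 17 kept both marks in 60.7%, 64.1% and 58.8% of such windows.

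**Figure D1:**
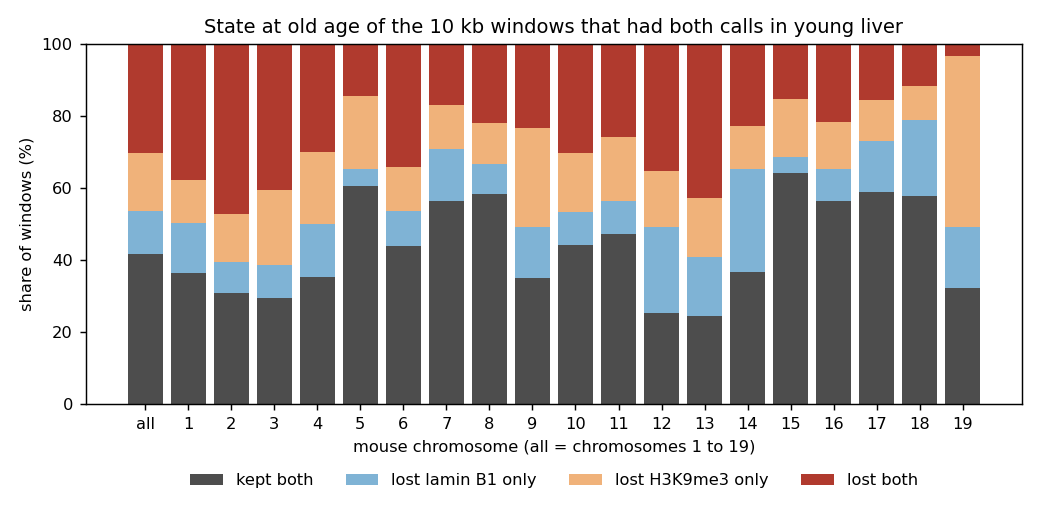
Stacked bars give, for all autosomes together and for each chromosome, the share in percent of the young windows with both calls that kept both, lost lamin B1 only, lost H3K9me3 only or lost both in old liver. The red segment, the windows that lost both, is 30.4% over all autosomes, widest on chromosome 2 at 47.2% and narrowest on chromosome 19 at 3.39%.

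The lost windows lay in blocks rather than singly. Broad calls favour this: the median young lamin B1 domain was 200 kb long and the median young H3K9me3 region 150 kb. A run of adjacent lost windows had a median length of 70 kb (quartiles 40 and 120 kb) and the longest was 440 kb. Only 33 runs were a single window, while the 145 runs of at least 100 kb held 2205 of the windows, or 64.7%. Runs themselves lay near each other in places: joined over gaps of at most 1 Mb they formed 252 clusters, of which 168 held 1 run, and the 10 fullest clusters held 639 windows (18.8%). The fullest cluster, chr10:30920001-35260000, held 13 runs and 136 lost windows over 4.34 Mb. It contained the start sites of 8 protein-coding genes (Hddc2, Tpd52l1, Rnf217, Trdn, Zup1, Calhm6, Dse and Nt5dc1), of which Dse encodes a dermatan sulfate epimerase and Rnf217 a ubiquitin ligase, and 2 wild-type and 1 mutant Foxa2 sites. The next, chr13:90190001-92480000, held 6 runs and 85 windows, and chr10:98660001-99700000 held 82 windows in 2 runs that made up 78.8% of its length. Another compact one, chr2:65130001-65630000, was lost windows over 92.0% of its length and held the start sites of Cobll1, Scn2a, Scn3a and Slc38a11.

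Most of the windows belonged to young domains and regions that no old call overlapped. Lost windows fell in 349 of 1621 autosomal young lamin B1 domains, and 270 of these 349 domains (77.4%) were overlapped by no old domain. Those domains held 2804 of the lost windows (82.3%). For H3K9me3 the lost windows fell in 361 of 2781 young regions, of which 223 (61.8%) had no old overlap and held 2359 windows (69.2%). Both conditions held for 2094 windows (61.4%). Over all autosomal young calls, 501 of 1621 lamin B1 domains and 1323 of 2781 H3K9me3 regions had no old overlap. The rule favours such domains, since it takes only windows outside every old call. The lost windows made up a median of 52.6% of a lamin B1 domain that held any and 35.5% of an H3K9me3 region, so a run was commonly the stretch where the 2 kinds of young domain crossed. The ends of the runs showed the same: of 798 run ends, 331 (41.5%) stood where the young lamin B1 domain ended, 249 (31.2%) where the young H3K9me3 region ended, 56 (7.02%) where both ended, and 162 (20.3%) where an old call began. Distances to old calls were counted from window to window, so that an adjoining window is 10 kb away. The nearest old lamin B1 window was a median of 1160 kb away (quartiles 360 and 2770 kb) and the nearest old H3K9me3 window 410 kb away (quartiles 130 and 1350 kb). Only 177 lost windows (5.19%) lay within 30 kb of an old lamin B1 call and 310 (9.10%) within 30 kb of an old H3K9me3 call, so few were shifts of a domain edge by 3 windows or less.

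The longest run, chr13:104880001-105320000, spanned 440 kb and was wholly covered by 1 young lamin B1 domain and 1 young H3K9me3 region. It held the start sites of Rnf180, a RING-finger ubiquitin ligase, of Rgs7bp, which tethers R7 regulators of G-protein signalling to the membrane, and of 4933425L06Rik. An old H3K9me3 call adjoined it, while the nearest old lamin B1 call was 720 kb away. The next runs by length, chr10:98660001-99080000 and chr10:99300001-99700000, were 420 and 400 kb long and flanked an old lamin B1 domain on its opposite sides; the nearest old H3K9me3 call was 3260 kb and 3900 kb away. The longer of the pair contained the whole of Atp2b1, the plasma membrane calcium pump, and the other had no protein-coding gene. The next, chr13:91140001-91490000 (350 kb), held the start sites of Ssbp2, a single-stranded DNA-binding cofactor, and Atg10, an E2-like enzyme of autophagy. The run chr2:65340001-65630000 (290 kb) held the start sites of the neuronal sodium channel genes Scn2a and Scn3a and of the amino acid transporter gene Slc38a11.

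Of the remaining 5 of the 10 longest runs, chr2:139600001-139870000 held the start site of Ism1 and part of the bodies of Sptlc3 and Tasp1, and the others, chr13:90470001-90760000, chr2:95900001-96180000, chr2:43020001-43290000 and chr4:31210001-31480000, touched no protein-coding gene. GC content over these 10 runs ranged from 36.7% to 41.8%.

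**Figure D2:**
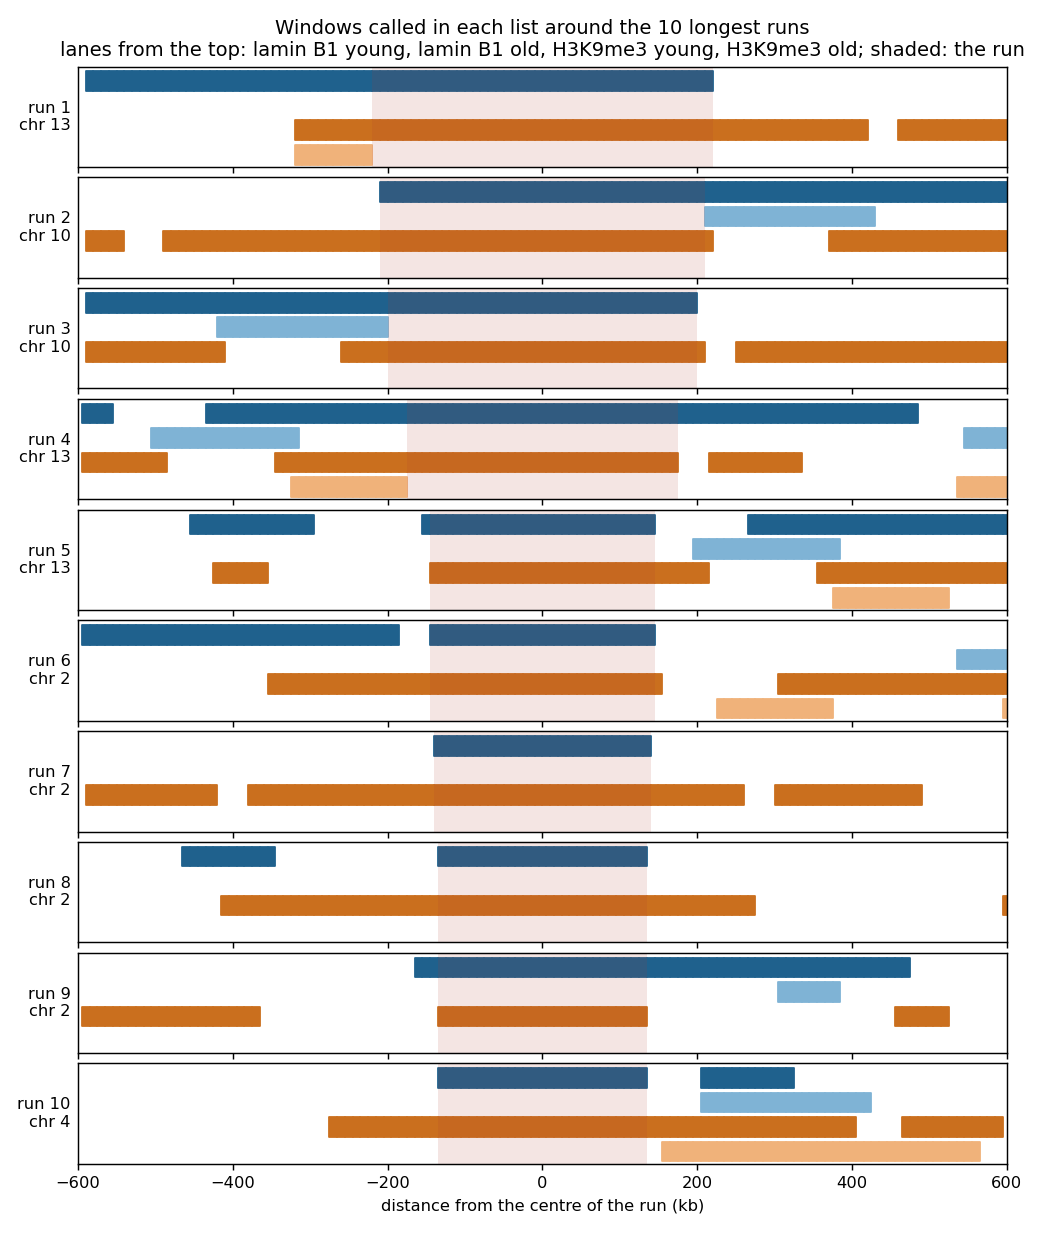
Each panel shows 1 of the 10 longest runs within 600 kb of its centre, with coloured bars where a 10 kb window lay in a young or old lamin B1 or H3K9me3 call and the run shaded; the x axis is the distance from the centre of the run in kb. The young lanes fill the shaded stretch and the old lanes are empty there by the rule, and old calls abut the runs ranked 1 to 4 but are absent from the plotted stretch around those ranked 7 and 8.

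Base composition separated the lost windows from the windows that kept the marks. The median GC content of the lost windows was 38.8% (quartiles 37.3 and 40.5), against 41.4% for all autosomal windows and 44.9% (43.1 and 46.8) for windows with both marks at both ages. On all 16 chromosomes with at least 50 lost windows, the median of the lost windows was below that of both comparison sets. It lay between 37.9% and 39.4% with an SD of 0.509 over these chromosomes, and was lower than in the stable windows by 4.75 to 8.20 percentage points. Windows that lost lamin B1 and never had H3K9me3 were close, at 39.6%, and the lost windows were lower on 15 of 16 chromosomes. Windows that gained both marks stood at the other end, at 46.5%.

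Within the young windows that carried both marks, the outcome followed GC content in steps. Of the 396 windows under 36% GC, 91.7% (Wilson interval 88.5 to 94.0) lost both marks. The share was 81.9% at 36 to 38%, 64.4% at 38 to 40%, 38.0% at 40 to 42%, 12.9% at 42 to 44%, 3.22% at 44 to 46% and 0.459% (0.179 to 1.17) of the 871 windows at 48% or above. Windows that lost lamin B1 only had a median of 40.4% and those that lost H3K9me3 only 44.0%, so the loss of lamin B1, alone or jointly, lay on the AT-rich side. With the product of the 2 losses taken within GC bins of 2 percentage points, it came to 27.5%, and the joint loss of 30.4% was 1.10 times that product instead of 1.54 times. The GC response of the libraries was not tested, since the lists hold no reads.

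**Figure D3:**
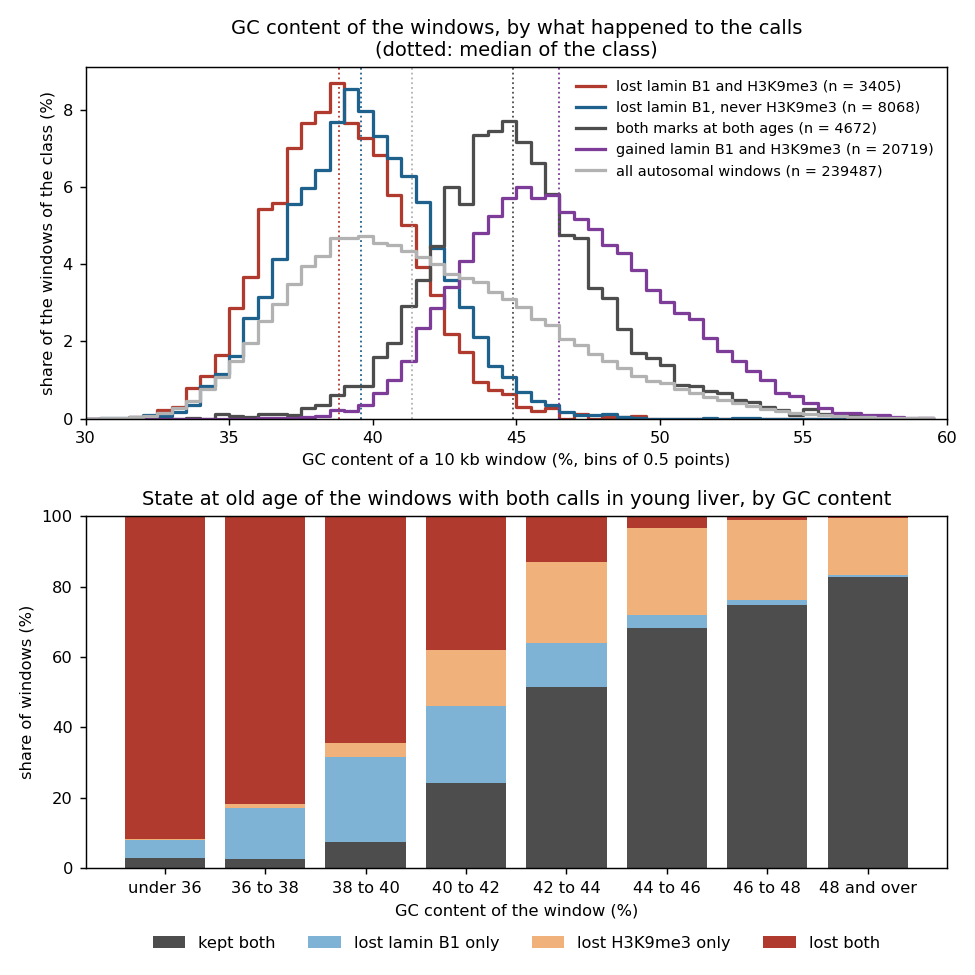
The upper panel gives the distribution of GC content (percent, bins of 0.5 points) over the windows of 5 classes, as a share of each class, with medians dotted; the lower panel gives the outcome, in percent, of the young windows with both marks by GC content. The lost windows centre on 38.8% and the stable ones on 44.9%, and the red share falls from 91.7% under 36% GC to 0.459% at 48% and over.

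The CpG content followed the same order except in windows that gained both marks. The ratio of observed to expected CpG was a median of 0.142 in the lost windows, 0.172 over all windows and 0.230 in the stable ones. Windows that gained both marks had 0.202, below the stable ones despite their higher GC content. Repeat-masked bases, which include the LINE elements that are common in AT-rich DNA, made up a median of 31.4% of a lost window (quartiles 23.9 and 43.6), 28.6% of all windows and 26.5% of stable ones, and were higher in the lost windows on 16 of 16 chromosomes in either comparison. Across the edges of the 145 runs of at least 100 kb, GC content did not step: the mean was 38.4% ± 0.125 (SE, n = 290 windows) in the outermost window inside the run and 38.6% ± 0.138 (SE, n = 289) in the first one outside, and 38.8% ± 0.147 (SE, n = 290) at 95 kb outside. The low GC was thus a property of the wider neighbourhood and not of the run alone. Repeat-masked bases were low in the outermost window inside, with a mean of 33.2%, against 39.5% in the first window outside. The next 4 windows inside had 36.1% to 38.3% and the windows outside 38.6% to 42.4%, the highest 15 kb out, so the low value was mainly that of the outermost window. Unique reads are harder to place in repeats, and the part of mapping in where a call ends was not tested. Beyond the edge, 55.5% of the windows 95 kb out still had a young H3K9me3 call and 28.3% a young lamin B1 call, while 10.3% and 4.48% had the old ones.

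**Figure D4:**
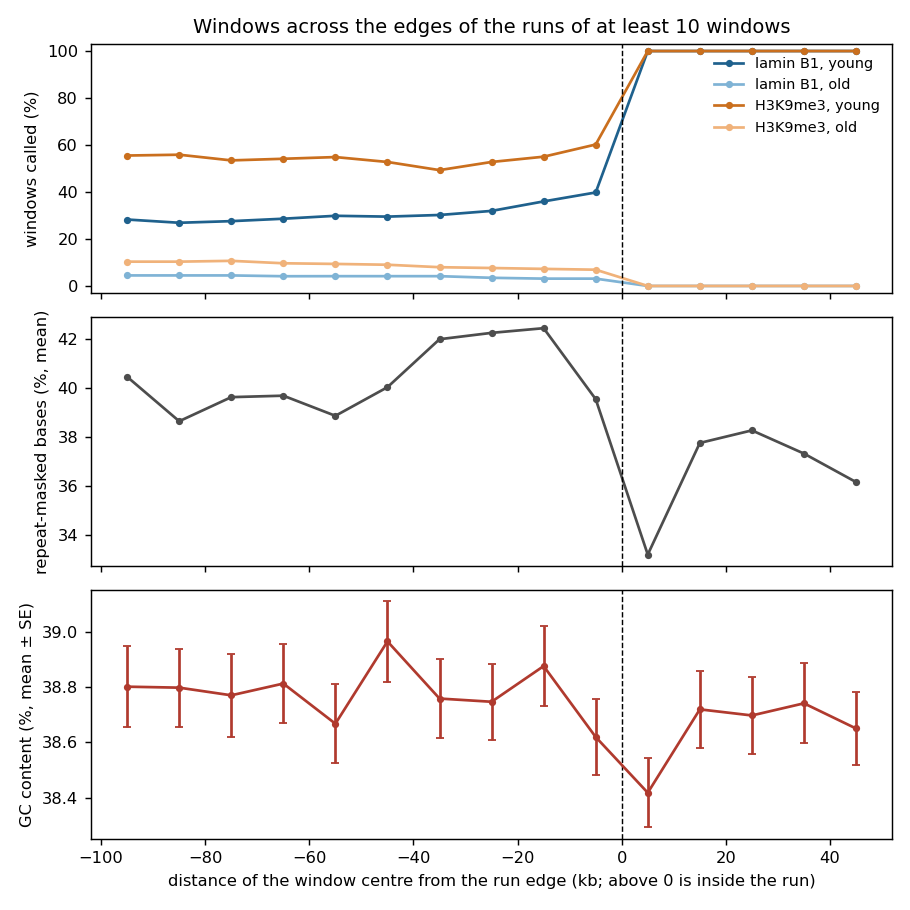
Windows are averaged by distance in kb of their centre from the edge of a run of at least 100 kb, both edges together, with negative values outside: the share called in each list, the mean share of repeat-masked bases, and the mean GC content with its SE. The repeat share is 39.5% in the first window outside, 33.2% in the outermost window inside and 37.7% in the next one, and GC content stays between 38.4% and 39.0% throughout.

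Genes were sparse. The lost windows held 143 protein-coding start sites, 0.687% of the 20807 autosomal protein-coding genes against 1.38% of the windows, or 4.20 start sites per Mb, where all windows had 8.68, stable windows 11.4 and windows that lost lamin B1 and never had H3K9me3 8.38. The density of the lost windows was below all 3 on each of the 16 chromosomes, with a range of 0.613 to 5.26 per Mb. It was close to that of other autosomal windows of the same GC content: weighted to the GC bins of the lost windows, all other windows had 3.89 start sites per Mb. Of the 399 runs, 294 (73.7%) held no protein-coding start site and 202 (50.6%) touched no protein-coding gene body. Bodies of protein-coding genes covered 28.9% of the bases of the lost windows, 34.6% in other windows weighted to the same GC content, 49.4% in stable windows and 62.0% where lamin B1 was lost without H3K9me3. Among the young windows with both marks, those that lost lamin B1 only had 6.31 start sites per Mb and those that lost H3K9me3 only had 13.8. These 2 groups also differed in median GC content, at 40.4% and 44.0%. Loss of lamin B1 did not go with sparse genes in general, since windows that never had H3K9me3 lost it at 8.38 start sites per Mb. Weighted to the GC bins of the windows that lost both marks, that density was 6.19 per Mb, against their 4.20. The windows that lost both marks and those that lost lamin B1 with no H3K9me3 call at either age were near each other in GC content and differed in gene cover.

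Genes that did lie there tended to be long. The body of 256 protein-coding genes (1.23%) touched a lost window, with a median length of 71.6 kb against 17.6 kb for all, and long genes touch more windows of any kind. Among the genes with most lost windows were Cntnap5b and Nkain2 with 20 each, Trhde with 19, Rnf180, Rsrc1 and Grm8 with 17, Ptprr and Ssbp2 with 15, and Trdn with 14, tied with Inpp4b among others. Cntnap5b, a contactin-associated protein of neurons, is 713 kb long and lost both marks over 27.8% of its windows. Trhde, the enzyme that degrades thyrotropin-releasing hormone, did so over 45.2%. Rnf180 was the exception, with all of its 17 windows lost. Grm8 encodes a metabotropic glutamate receptor, Ptprr a receptor-type tyrosine phosphatase, and Trdn triadin of the muscle calcium release complex.

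Some runs held several start sites. The richest, chr2:86770001-86940000, held 7, of which 6 are olfactory receptor genes (Olfr141, Olfr1093, Olfr1094, Olfr1095, Olfr1097 and Olfr1098) and the other is Gm13723. The run chr1:9880001-10060000 held 5, among them Cops5, a subunit of the COP9 signalosome, and Cspp1, a centrosome and cilium protein. The run chr3:142520001-142620000 held 3 members of the interferon-induced guanylate-binding protein family, Gbp2b, Gbp3 and Gbp7. The run chr8:40490001-40650000 held Cnot7, a deadenylase of the CCR4-NOT complex, together with Vps37a and Mtmr7. These runs were named after their values were seen.

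Few genes from the lists for liver metabolism lay in these windows. Of the genes listed for lipid droplets and triglyceride storage (29), fatty acid oxidation (30) and hepatocyte identity (31), none had a start site or any part of its body there. Of 21 lipogenesis genes none had its start site there, and the body of Elovl7, a fatty acid elongase, had 5 of its 8 windows lost. Of 42 nuclear receptors and coregulators, 1 had its start site in a lost window: Nr2f1 (COUP-TFI), an orphan receptor of neural development, in a 50 kb run on chromosome 13. Among genes outside these lists, Etfa, an electron transfer flavoprotein subunit of fatty acid oxidation, and Akr1c21, an aldo-keto reductase, had their start sites in lost windows; both were named after their values were seen. With 0.687% of all protein-coding genes in these windows, 0 or 1 gene is what lists of these sizes give at that share.

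Gene families gave small counts. The olfactory receptors had 8 of 1128 start sites in lost windows (0.709%), next to 0.687% for all genes; beside the 6 on chromosome 2 these were Olfr267 and Olfr455. Of 385 Zfp genes, which encode zinc finger proteins and often lie in H3K9me3-marked clusters, 2 (0.519%) had a start site there, Zfp760 and 1 more. Solute carriers gave 2 of 330, Slc38a11 and Slc5a12, the latter a lactate and monocarboxylate transporter. A single gene was found for the cytochromes P450 (Cyp20a1, of 99), the serpins (Serpinb2, of 60), cadherins and protocadherins (Pcdh10, of 95), collagens (Col19a1, of 42), potassium channels (Kcnj3, of 91) and forkhead factors (Foxn2, of 41). No start site was found for the vomeronasal receptors (327), keratins (53), conjugating enzymes Ugt and Sult (43), ionotropic glutamate receptors (15), GABA-A receptors (16) and GATA and Sox factors (23). Of 60 long neural adhesion genes none had its start site in a lost window and 6 had part of their body there, among them Cntnap5b, Dlg2, Csmd3, Cntn6 and Dpp10 with 20, 10, 7, 2 and 2 lost windows. Per window of gene body the list was near the rest, with 43 of 5285 windows lost (0.814%) against 0.918% over all protein-coding genes.

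MicroRNA genes formed another small group, described after their values were seen. Of 2054 annotated autosomal microRNA genes, 21 (1.02%) started in a lost window, spread over 14 windows, and a mature sequence was found for 11 of them. Among these was the whole Mir17 cluster on chromosome 14, whose 6 genes (Mir17, Mir18, Mir19a, Mir20a, Mir19b-1 and Mir92-1) start between 115043671 and 115044427 on the forward strand. This cluster is known for promoting cell proliferation. It lay in a run of 200 kb, chr14:114960001-115160000, whose nearest old lamin B1 and H3K9me3 calls were 2720 and 2740 kb away and which also held the start site of Gpc5, a cell-surface proteoglycan. The window with the cluster had a GC content of 48.8% in a run of 40.6%, and no Foxa2 site was called in the run. The main mature microRNAs of the cluster are shown with their RefSeq sequences (GRCm38.p6), seeds (bases 2 to 8) in capitals: miR-17-5p and miR-20a-5p share a seed, as do miR-19a-3p and miR-19b-3p, while miR-18a-5p and miR-92a-3p have their own.
miR-17-5p: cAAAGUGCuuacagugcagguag
miR-20a-5p: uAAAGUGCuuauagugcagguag
miR-18a-5p: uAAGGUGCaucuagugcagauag
miR-19a-3p: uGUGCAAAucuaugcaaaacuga
miR-19b-3p: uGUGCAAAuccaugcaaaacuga
miR-92a-3p: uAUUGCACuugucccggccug

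Foxa2 sites were few in these windows in wild-type mice. In all, 47 of 4912 autosomal wild-type sites (0.957%) and 105 of 8051 mutant sites (1.3%) had their midpoint in a lost window, against 1.38% of the windows. The wild-type density was 138 sites per 100 Mb (exact Poisson interval 101 to 184), below the 205 (199 to 211) of all windows and the 420 (363 to 483) of stable windows, and below all windows on 14 of 16 chromosomes. The mutant density was 308 (252 to 373), and its interval included the 336 of all windows; it was lower than that on 11 of 16 chromosomes. Stable windows had 533 mutant sites per 100 Mb (469 to 603). Windows that lost lamin B1 only had 191 wild-type and 315 mutant sites per 100 Mb, and those that lost H3K9me3 only had 562 and 568. As with genes, the values were near those of other windows at the same GC content, which were 121 wild-type and 282 mutant sites per 100 Mb.

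The mutant list is longer in every class, and the ratio of mutant to wild-type sites in the lost windows was 2.23 (exact interval 1.57 to 3.22, the 2 lists taken as separate counts). Over all windows the ratio was 1.64 (1.58 to 1.70), within that interval. It was 1.91 (1.60 to 2.28) in windows that lost lamin B1 and never had H3K9me3 and 1.27 (1.05 to 1.54) in stable windows, whose interval ended just below that of the lost windows. Other autosomal windows weighted to the same GC content had 282 mutant and 121 wild-type sites per 100 Mb, a mutant excess of similar size. No difference between classes was tested, because each genotype is 1 merged list.

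**Figure D5:**
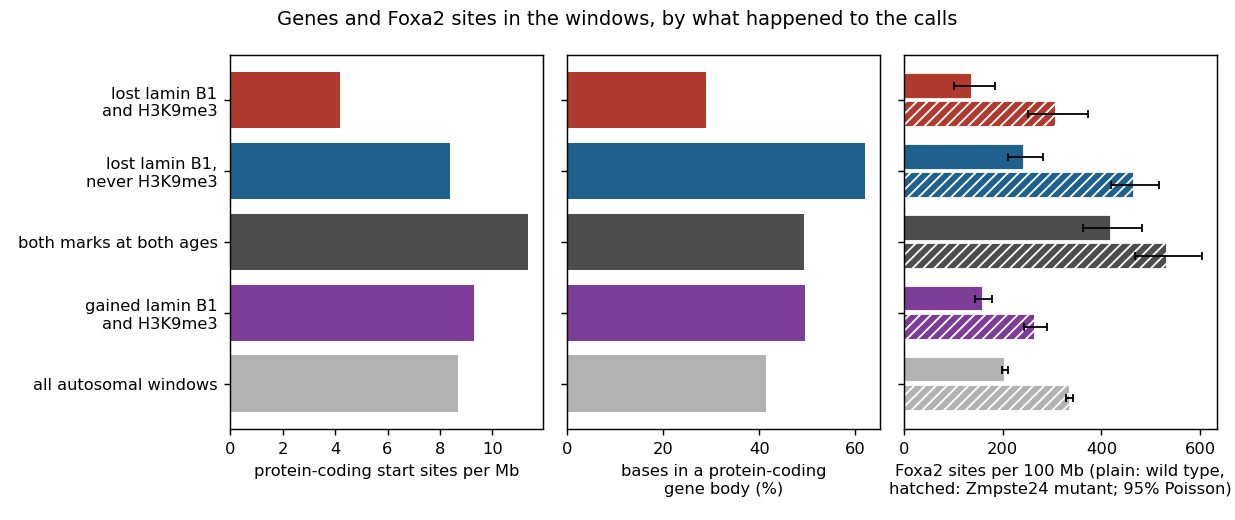
Horizontal bars give, for the 5 classes of windows, protein-coding start sites per Mb, the share of bases in a protein-coding gene body in percent, and Foxa2 sites per 100 Mb in wild-type (plain) and Zmpste24 mutant (hatched) liver with 95% Poisson intervals. The lost windows have the shortest bars for genes (4.20 start sites per Mb and 28.9% of bases), and for Foxa2 they lie at 138 and 308 per 100 Mb.

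Sites called in a single genotype made up 36 of the 47 wild-type sites (76.6%, against 72.7% of all autosomal ones) and 94 of the 105 mutant sites (89.5%, against 83.2%). The 11 overlapping sites per list include 4 in 1 window, chr2:98660001-98670000, over the genes Gm10800 and Gm10801, where 58.0% of the bases are repeat-masked. Without that window the densities were 126 wild-type and 297 mutant sites per 100 Mb and the ratio was 2.35. Most sites lay far from start sites, with 29 of the 47 wild-type and 63 of the 105 mutant sites over 50 kb away, although 18 and 39 lay inside the body of a protein-coding gene. The median distance to the nearest protein-coding start site was 168 kb for wild-type and 69.0 kb for mutant sites in lost windows, against 26.0 and 46.2 kb for all sites of each list.

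The sites were thinly spread over the runs. Of the 399 runs, 294 held no site of either list, 82 held a mutant site, 39 a wild-type site and 16 both. Apart from the run with Gm10800 and Gm10801, 3 runs held at least 3 mutant sites. The run with the first part of Stpg2, chr3:139090001-139230000, had 4 mutant sites, 8.52 to 51.9 kb from the nearest start site, and 0 wild-type sites. The run of Cobll1, chr2:65130001-65300000, had 3 mutant and 2 wild-type sites, of which 2 overlapped between the genotypes, at 68.1 and 46.2 kb from its start in the wild-type list. The Atp2b1 run had 3 mutant sites and 1 wild-type site, with no overlap between them. None of the Stpg2 and Cobll1 sites held a forkhead core.

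The forkhead core TGTTTAC, on either strand, was found in 10 of the 47 wild-type sites (21.3%, Wilson interval 12.0 to 34.9) and 14 of the 105 mutant sites (13.3%, 8.11 to 21.1). Outside the lost windows the shares were 27.9% and 23.5%, the second of which lies above the interval of the mutant sites; this difference was not tested. Both shared sites with a core, shown above, lay inside genes. The first was in Mtmr7, 57.3 kb from the start site of Cnot7 in the wild-type list, and the second in Rnf217, 57.4 kb from its start site. Ssbp2 had a wild-type site with 2 cores inside the gene, 5.62 kb from its start, and a mutant site with 1 core outside it, 92.4 kb away, each called in that genotype only. Atp2b1 had a mutant site with a core 39.9 kb from its start and, without a core, a wild-type site 0.478 kb from it. At Abcg2, a transporter that exports bile and xenobiotic substrates, a mutant site with a core lay inside the gene, 22.7 kb from its start. Also inside Abcg2, and without a core, were a wild-type site 26.1 kb and another mutant site 15.9 kb from the start.

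The remaining wild-type sites with a core were nearest to Arhgap18, Inpp4b, Dusp6, Lrrc4c, Kynu and Agtr1b and, for a second site, Rnf217. The remaining mutant sites with a core were nearest to Arfgef1, Tbx18, Car8, Etaa1, Snx7, Cntn6, Ptbp2, Gm11232 and Etl4. Apart from Arfgef1 (15.7 kb) and Rnf217 (40.7 kb), these lay between 69.7 and 607 kb from the start site.

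Sites at promoters made up a smaller share than in each whole list, a difference that was not tested. Start sites were themselves sparser in these windows, at 4.20 per Mb against 8.68 over all windows. Within 5 kb of a start site lay 8 wild-type sites (17.0%, against 22.6% of all) and 8 mutant sites (7.62%, against 14.1%), and 4 of each were those of Gm10800 and Gm10801. The 4 other mutant sites were at Isl1 (0.067 kb), Atoh1 (1.42 kb), Etfa (2.32 kb) and Pcsk1 (3.78 kb), and each was called in the mutant only. Isl1 is a LIM-homeodomain factor of motor neurons, heart and endocrine pancreas, Atoh1 a proneural factor and Pcsk1 a prohormone convertase. The other wild-type ones were at Fam174a (0.162 kb), Atp2b1 (0.478 kb), E130308A19Rik (0.792 kb) and Cops5 (1.75 kb). The mutant site at Isl1, chr13:116309305-116310206, spanned the start site and lay in a 50 kb run that had no wild-type site. The 250 bases upstream of the RefSeq start of Isl1 lie wholly inside that site and are given in lower case throughout, because they hold no forkhead core. Of these bases 71.2% are G or C. The run itself had a GC content of 41.6%, near the median of 41.4% of all autosomal windows.
Isl1 upstream stretch, chr13:116309689-116309938, reverse strand: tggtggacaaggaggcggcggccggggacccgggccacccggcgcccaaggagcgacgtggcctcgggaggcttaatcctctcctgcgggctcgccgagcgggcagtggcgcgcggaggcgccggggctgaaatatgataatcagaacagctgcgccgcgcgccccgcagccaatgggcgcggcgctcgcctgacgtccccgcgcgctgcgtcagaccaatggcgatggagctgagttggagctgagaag

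Of the genes with a start site in the lost windows, 106 were found in the RefSeq promoter table with 124 promoters of 300 bases. The core was present in 6 of these (4.84%) and in 3.65% of all 32851 promoters. Their mean GC content was 56.0%, against 53.8% for all promoters, so the AT-rich surroundings did not extend to the promoters of these 106 genes. The rest of the 143 genes had no promoter in that table and were not examined.

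Over whole windows, the forkhead core occurred 0.180 times per kb in the lost windows and 0.157 times per kb over all windows, and was more frequent than in the stable windows (0.145) and in all windows on 16 of 16 chromosomes. TGTTTAC is itself AT-rich. With other autosomal windows weighted to the GC bins of the lost windows, the density elsewhere was 0.172 per kb, and the ratio fell from 1.15 to 1.05. Against windows that lost lamin B1 and never had H3K9me3 (0.179 per kb), the lost windows were higher on 6 chromosomes and lower on 10.

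The stretch chr10:26190001-27330000, which the study displays, held 114 windows, all inside a young lamin B1 domain and none inside an old one. H3K9me3 was called in 49 of them in young and 10 in old liver, and 39 (34.2%) lost both marks. In the displayed stretch chr5:92700001-92730000 all 3 windows kept lamin B1, and no H3K9me3 was listed there at either age, so it held no lost window. The study shows that stretch for a decrease in read signal, and proposes that lamin B1 can fall locally inside domains called at both ages. The lists hold no signal, so that decrease was not tested.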

How the data were processed

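The authors aligned reads with BWA (mm10), dropped Picard duplicates and reads without a unique alignment, pooled the replicates, and called lamin B1 domains with Epic in 10 kb windows (gap size 3) and Foxa2 sites with PeakSeq against input, after reducing the mutant reads to the wild-type depth. The caller of the H3K9me3 regions is not given in the methods, and the submitters' processing notes name BWA and SICER. The 6 deposited lists hold positions only, in other units than counts or signal, so neither depth per replicate nor a score is known. The H3K9me3 lists used here hold 2784 young and 2496 old regions, far fewer than the study describes.

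The members and gene lists were chosen with earlier results of these data known. Lists were cut into 10 kb windows, which were compared with GENCODE vM21 genes and GRCm38.p6 sequence (soft-masked repeats). Foxa2 sites were placed by their midpoint. Densities used windows with at least 90% known bases, and chromosomes were compared where at least 50 lost windows were present. Shares have Wilson and rates exact Poisson intervals at 95%. Weighting to GC used bins of 2 percentage points; for genes, Foxa2 and the joint loss it was added after seeing the data. Named genes are those that start in the 10 longest runs, genes among the 10 with most lost windows, listed genes that start in a lost window, and genes nearest to Foxa2 sites with a core; the others were chosen after their values were seen. No test was run, since each condition is 1 merged list. Code was tested on simulated data and run in Python 3.11.15 with numpy 2.4.6, pandas 2.3.3, scipy 1.17.1 and matplotlib 3.10.9. Some genes that this rule selects are not reported here. Regions of chromosome 18 were only counted, and H3K9me2 was not analysed here.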

Additional observations from a re-analysis of the deposited data

How the results depend on the processing

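Of 40 alternative values for 7 results, 31 stayed within the counting interval, within 1 SD over chromosomes or, for the number of windows, within 1.5 times. Restricting the windows to whole young domains and regions that no old call overlapped left 2094 windows, with a median GC content of 38.2%; the position result is fixed by that restriction and was not recomputed. Windows over 30 kb from any old call lay in lamin B1 domains with no old overlap in 87.5%. Windows of domains of at least 100 kb and regions of at least 30 kb did so in 80.6%, against 82.3%. Start sites of all annotated genes gave 14.4 per Mb (21.4 over all windows), and gene bodies that touch a lost window 7.52 per Mb. Sites wider than the median of their list gave 179 mutant and 85.2 wild-type sites per 100 Mb. The word TGTTTAC or TGTTTGC occurred 0.394 times per kb (0.374 over all windows). Under each of the 4 restrictions the difference in median GC content from all windows was -3.18 to -2.49 percentage points, and the lost windows had 0.445 to 0.511 times their start sites and 1.14 to 1.15 times their forkhead cores, and had a mutant to wild-type ratio of 2.00 to 2.29. No paired analysis was possible because the replicates were merged before calling, so no column carries a replicate number, and for the same reason no replicate could be left out. The lists carry no depth or score, so a call lost for want of reads cannot be told apart from a mark that was lost.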

Other observations

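Cores of other factors were counted in the same windows on both strands. The density of AGATAA, the GATA core, was 0.863 per kb in the lost windows and 0.737 per kb in all other windows, or 0.857 when these were weighted to the same GC content. The Klf core GGGCTGG occurred 0.149 times per kb, against 0.245 unweighted and 0.153 weighted. Against windows that lost lamin B1 and never had H3K9me3, weighted alike, the Klf core occurred 0.790 times as often and the Sox cores CCATTGT and CCTTTGT 1.09 times as often. The Sp1 core CCCTCCC and the Zeb1 core CCCTGG occurred 1.03 and 0.979 times as often as in all other windows at the same GC content.

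Of 51229 annotated autosomal genes of any kind, 489 (0.955%) started in a lost window, against 1.38% of the windows. By type these were 148 of 8924 processed pseudogenes (1.66%), 143 of 20807 protein-coding genes (0.687%) and 58 of 5209 lincRNA genes (1.11%). The sex chromosomes were outside the rule and held few calls: 8 young lamin B1 and 8 young H3K9me3 windows on the X chromosome and 3 of each on the Y chromosome, and 0 windows there lost both marks.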
